A study of Homo sapiens with 12 samples.

Results

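The genes described here are 35 genes of the ATF4 pathway, out of 61860 genes in the count table, and they were measured in 12 RNA-seq libraries of HEK293 cells. They were chosen by name from the known pathway, and selected on the observation, made in these same libraries, that replicates of 1 cell line differed strongly for them. Their spread between replicates is therefore given as a description and not tested. All 35 symbols matched a single gene each and all 35 passed the filter on low counts in each comparison.

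ATF4 is the transcription factor of the integrated stress response. Shortage of an amino acid, an overloaded endoplasmic reticulum or a failing mitochondrion activates kinases of the translation factor eIF2, most translation falls, and ATF4 mRNA, whose upstream open reading frames normally keep it silent, is translated. ATF4 then binds composite C/EBP-ATF response elements with C/EBP partners and switches on genes that import amino acids, make serine, asparagine and cysteine, and run mitochondrial one-carbon metabolism, together with DDIT3 (CHOP) and TRIB3, which limit the response.

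HEK293 is an established human embryonic kidney line. The Flp-In T-REx 293 lines compared were each an individual clone in which doxycycline switches on both miRNAs that target the cell's own PGC-1α mRNA and a FLAG-tagged PGC-1α that resists them; PGC-1α is a coactivator of mitochondrial genes. In WT-res this protein was full length, and in ΔRS-res it lacked the RS domain, the part that binds RNA and the export receptor NXF1. Both lines received doxycycline at 1 µg/ml for 6 days, and no uninduced or parental cells are among the 12 libraries. Whole-cell and cytoplasmic RNA were each sequenced in 3 replicates per line, from consecutive passages, with several wells pooled for cytoplasmic RNA and a single well used for whole-cell RNA, so that p-values measure the spread between these passages of 1 clone per line. The study asked which mRNAs depend on the RS domain for their level in the whole cell and in the cytoplasm, and it kept 2 cytoplasmic libraries per line, WT-res replicates 1 and 3 and ΔRS-res replicates 1 and 2.

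Libraries held between 90333190 and 144628005 counts. HEK293 markers (7 genes, among them VIM, KRT8, KRT18 and NEFL) summed to 1190 to 1790 CPM, of which VIM alone gave 760 to 1060 CPM. Of these 7 genes NEFM stayed below 1 CPM in every library and PAX2 lay between 2.79 and 5.81 CPM. Of 8 markers of blood, endothelial, liver and fibroblast cells, 7 stayed below 1 CPM in every library. Levels are in CPM, a gene's count divided by the library's total on a common scale, adjusted by TMM over all 12 libraries. PPARGC1A, which encodes PGC-1α, gave 647, 662 and 487 CPM in the libraries labelled WT-res whole-cell replicates 1, 2 and 3, and 342, 355 and 486 CPM in those of ΔRS-res. The library labelled WT-res replicate 3 of whole-cell RNA went against its label in both genes that separate the lines. DDX19B stood at 0.194 CPM there against 12.1 and 12.7 CPM in WT-res whole-cell replicates 1 and 2, and SDHA at 328 CPM against 70.0 and 68.0 CPM, which are the levels seen in ΔRS-res. It was kept under its label, and the tests of whole-cell RNA and of the fractions of WT-res are also given without it. The levels and ratios of each library show its values as deposited. In bulk RNA, fewer cells with a response and a weaker response per cell cannot be told apart.

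Promoter sequences of 28 of the 35 genes were found in RefSeq (GRCh38.p14, 250 bases before to 50 after each start site, 48 start sites in all). Entries were missing for NUPR1, ALDH1L2, INHBE, PSPH, SHMT2, SLC7A11 and GPT2. The core of the C/EBP-ATF response element, TGATGNAA, was searched on both strands and occurred in 11 of the 48 promoters, which belong to 9 of the 28 genes (32.1%), against 3.62% of all 35116 promoters and 4.46% of all 27305 genes with an entry. The cyclic AMP response element, TGACGTCA, was in 0 of the 48 promoters, against 1.85% of all promoters. Neither match marks a bound site. The promoters of ASNS, CHAC1 and TRIB3 are shown whole, because these 3 genes carry the replicate pattern described next and differ in the match, with the matched bases in capitals.
ASNS, chr7:97872359-97872658, minus strand: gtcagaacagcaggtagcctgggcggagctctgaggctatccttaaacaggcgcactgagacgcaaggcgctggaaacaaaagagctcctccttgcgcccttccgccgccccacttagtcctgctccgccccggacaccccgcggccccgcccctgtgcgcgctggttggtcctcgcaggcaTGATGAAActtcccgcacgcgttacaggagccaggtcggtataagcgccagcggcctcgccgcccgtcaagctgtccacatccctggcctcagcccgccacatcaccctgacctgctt
CHAC1, chr15:40953221-40953520, plus strand: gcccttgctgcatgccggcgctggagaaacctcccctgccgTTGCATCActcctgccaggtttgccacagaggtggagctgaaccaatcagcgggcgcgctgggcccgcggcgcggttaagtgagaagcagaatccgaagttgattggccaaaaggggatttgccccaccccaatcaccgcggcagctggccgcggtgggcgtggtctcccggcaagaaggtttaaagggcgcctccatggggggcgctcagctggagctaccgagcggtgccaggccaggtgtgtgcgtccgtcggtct
TRIB3, chr20:381045-381344, plus strand: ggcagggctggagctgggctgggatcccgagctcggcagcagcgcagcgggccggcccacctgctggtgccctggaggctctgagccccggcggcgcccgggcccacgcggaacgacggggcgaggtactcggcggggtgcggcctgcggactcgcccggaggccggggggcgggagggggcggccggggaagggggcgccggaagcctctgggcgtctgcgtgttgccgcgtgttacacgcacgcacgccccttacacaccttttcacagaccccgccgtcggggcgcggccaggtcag

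In ASNS the match began 68 bases before the start site, on the strand of the gene, and in CHAC1 it began 209 bases before it, on the opposite strand. None of the 3 start sites of TRIB3 had one. The other matched genes are shown as the match with up to 40 bases on either side, in the direction of the gene, since their levels differed little or much between replicates although they share the element.
CEBPG, chr19:33374031-33374118, plus strand: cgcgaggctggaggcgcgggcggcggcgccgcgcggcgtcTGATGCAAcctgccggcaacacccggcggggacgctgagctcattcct
ATF3, chr1:212565176-212565263, plus strand: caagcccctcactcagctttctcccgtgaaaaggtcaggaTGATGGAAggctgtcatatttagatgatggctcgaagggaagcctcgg
MTHFD1L, chr6:150866317-150866404, plus strand: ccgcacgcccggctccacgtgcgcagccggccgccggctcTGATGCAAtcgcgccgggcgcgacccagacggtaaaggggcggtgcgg
SLC3A2, chr11:62881696-62881748, plus strand: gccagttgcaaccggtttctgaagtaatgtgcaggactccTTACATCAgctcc
SLC7A1, chr13:29595639-29595721, minus strand: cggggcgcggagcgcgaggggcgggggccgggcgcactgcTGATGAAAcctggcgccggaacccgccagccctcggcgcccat
SLC1A4, chr2:64989352-64989439, plus strand: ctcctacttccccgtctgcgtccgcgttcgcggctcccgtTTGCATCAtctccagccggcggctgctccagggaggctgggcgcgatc
SLC1A5, chr19:46784864-46784951, minus strand: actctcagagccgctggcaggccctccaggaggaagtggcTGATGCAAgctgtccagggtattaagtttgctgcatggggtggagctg

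ASNS encodes asparagine synthetase (ENSG00000070669, chr7:97851677-97872542). Its level was 193, 192 and 518 CPM in WT-res whole-cell replicates 1, 2 and 3 and 227, 218 and 537 CPM in those of ΔRS-res. In the cytoplasm it was 424, 230 and 460 CPM in WT-res and 248, 250 and 584 CPM in ΔRS-res. Replicate 3 was thus the high library under both line labels in whole-cell RNA, and that of WT-res is the library that went against its label. In the cytoplasm WT-res replicates 1 and 3 and ΔRS-res replicate 3 were high. As labelled, the lines overlapped in both fractions. Without the library that went against its label, the WT-res whole-cell values, 193 and 192 CPM, lay below all those of ΔRS-res. The arrangement as labelled recurred through most of the 35 genes. It differs between the fractions only in WT-res replicate 1, whose whole-cell library was low and whose cytoplasmic library was high.

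Among the 8 regulators, ATF4 itself (ENSG00000128272, chr22:39519695-39522683) varied little. It gave 533, 522 and 578 CPM in WT-res whole-cell RNA and 527, 489 and 612 CPM in ΔRS-res, and in the cytoplasm 809, 701 and 847 CPM in WT-res and 650, 690 and 850 CPM in ΔRS-res. Its highest library was replicate 3 in all 4 groups, but the fold between the highest and the lowest replicate of a group reached only 1.31, and the lines overlapped.

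DDIT3, the proapoptotic partner CHOP (ENSG00000175197, chr12:57516588-57521737), moved further. Its whole-cell levels were 15.7, 15.1 and 32.1 CPM in WT-res and 14.7, 14.1 and 32.0 CPM in ΔRS-res, and its cytoplasmic levels were 36.0, 18.4 and 39.9 CPM and 17.1, 18.9 and 39.3 CPM. Replicate 3 was at about the same level under both line labels in each fraction, so the groups as labelled overlapped almost completely in whole-cell RNA. The WT-res whole-cell library of that number is the one that went against its label. DDIT3 shares 355 exonic bases with MARS1 on the opposite strand, and how strand was used in counting is not given in the sources used here.

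TRIB3, a pseudokinase that inhibits ATF4 (ENSG00000101255, chr20:362835-397559), was measured at 23.1, 22.6 and 60.8 CPM in WT-res whole-cell RNA and at 28.7, 26.6 and 66.0 CPM in ΔRS-res. In the cytoplasm the values were 58.1, 30.3 and 57.9 CPM and 34.8, 35.4 and 84.1 CPM. The widest fold between its replicates was 2.69, the same as for ASNS, although no match to the response element was found in its promoters.

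NUPR1, a small stress-induced chromatin protein (ENSG00000176046, chr16:28532708-28539008), had the widest range of all 35 genes at a low level. It gave 0.796, 0.716 and 4.28 CPM in WT-res whole-cell RNA, 0.985, 1.11 and 4.10 CPM in ΔRS-res, 2.99, 1.04 and 3.64 CPM in WT-res cytoplasm and 1.39, 1.41 and 4.65 CPM in ΔRS-res cytoplasm. The high and low libraries were those of ASNS. An unnamed gene on the same strand shares 909 exonic bases with NUPR1 and took up to 108% of its count, so the split of reads between the pair is uncertain. The other regulators were CEBPB and CEBPG, the C/EBP partners, with widest folds of 1.75 and 1.79 between replicates, ATF5 with 1.41 and ATF3 with 1.22.

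The serine pathway gave smaller but parallel differences among replicates. PSAT1, phosphoserine aminotransferase (ENSG00000135069, chr9:78297125-78330093), was at 199, 207 and 292 CPM in WT-res whole-cell RNA and 210, 207 and 308 CPM in ΔRS-res, and at 314, 259 and 349 CPM and 238, 257 and 362 CPM in the cytoplasm. PHGDH, the first enzyme of the pathway (ENSG00000092621, chr1:119648411-119744218), was at 192, 184 and 274 CPM and 206, 202 and 304 CPM in whole-cell RNA, and at 312, 228 and 316 CPM and 232, 233 and 358 CPM in the cytoplasm. Both had the high and low libraries of ASNS, with widest folds of 1.52 and 1.54.

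PCK2, mitochondrial phosphoenolpyruvate carboxykinase (ENSG00000100889, chr14:24094053-24110598), gave 17.5, 16.6 and 47.4 CPM and 20.7, 21.0 and 50.7 CPM in whole-cell RNA, and 35.5, 17.8 and 37.3 CPM and 19.6, 20.7 and 52.7 CPM in the cytoplasm. ALDH1L2, the mitochondrial formyltetrahydrofolate dehydrogenase (ENSG00000136010, chr12:105019784-105107643), gave 5.76, 5.76 and 22.6 CPM in WT-res and 9.15, 8.62 and 23.7 CPM in ΔRS-res whole-cell RNA, then 14.6, 4.87 and 15.8 CPM and 7.53, 8.76 and 28.1 CPM in the cytoplasm. ALDH1L2 and PCK2 followed NUPR1 in the width of their range, with folds of up to 3.92 and 2.85, whereas MTHFD1L, another mitochondrial one-carbon enzyme, reached 1.2.

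CBS, the first enzyme of transsulfuration, is an uncertain value. Its near-identical copy CBSL took between 600% and 1300% of the CBS count, and the reads of the pair could be split between them arbitrarily. Summed, CBS and CBSL gave 66.9, 62.7 and 84.5 CPM and 67.7, 66.4 and 97 CPM in whole-cell RNA, and 110, 74.5 and 106 CPM and 72.1, 70.5 and 110 CPM in the cytoplasm. The sum thus had the same high and low libraries as ASNS, with a wider spread than CBS alone, whose highest fold between replicates was 1.37. CTH, the next enzyme of the pathway, reached 1.88.

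Most of the 8 amino acid transporters differed little between replicates, as ATF4, ATF3 and MTHFD1L did. SLC7A11, the cystine carrier xCT (ENSG00000151012, chr4:138164097-138242349), gave 54.4, 65.8 and 67.3 CPM in WT-res whole-cell RNA against 36.9, 44.5 and 44.9 CPM in ΔRS-res, and 36.3, 28.5 and 35.1 CPM against 23.3, 22.3 and 28.4 CPM in the cytoplasm. All WT-res libraries lay above all ΔRS-res libraries in both fractions, in the cytoplasm by the narrow gap between 28.5 and 28.4 CPM. SLC3A2, the heavy chain that carries SLC7A11 and SLC7A5 to the membrane (ENSG00000168003, chr11:62856004-62888880), gave 118, 114 and 93.2 CPM and 103, 102 and 103 CPM in whole-cell RNA and 43.9, 43.7 and 42.3 CPM and 42.5, 38.6 and 37.0 CPM in the cytoplasm. In SLC3A2, replicate 3 was the lowest library of 3 of the 4 groups, the reverse of ASNS. The glycine carrier SLC6A9 was the exception among transporters, with a widest fold of 2.20, while SLC7A1, SLC1A5, SLC7A5, SLC38A2 and SLC1A4 lay between 1.13 and 1.36.

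Among the 7 effectors, CHAC1, which degrades glutathione (ENSG00000128965, chr15:40952962-40956512), was measured at 3.37, 3.25 and 6.36 CPM and 3.70, 3.75 and 7.08 CPM in whole-cell RNA, and at 7.20, 4.11 and 7.07 CPM and 3.78, 3.93 and 7.83 CPM in the cytoplasm. GDF15, a secreted stress cytokine (ENSG00000130513, chr19:18374731-18389176), gave 4.43, 4.11 and 9.16 CPM and 5.08, 5.30 and 9.95 CPM in whole-cell RNA, then 2.32, 1.35 and 1.82 CPM and 1.48, 1.28 and 1.93 CPM in the cytoplasm. Both had replicate 3 as the high whole-cell library under each line label.

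INHBE, the βE subunit of activins (ENSG00000139269, chr12:57452323-57459280), gave 1.45, 1.47 and 3.78 CPM and 1.73, 1.45 and 4.03 CPM in whole-cell RNA, and 1.84, 0.709 and 1.61 CPM and 0.895, 0.850 and 1.72 CPM in the cytoplasm. VLDLR, a lipoprotein receptor (ENSG00000147852, chr9:2621182-2660056), gave 12.1, 12.6 and 28.4 CPM and 14.1, 14.5 and 28.1 CPM, and in the cytoplasm 5.38, 2.79 and 4.27 CPM and 3.25, 3.29 and 6.04 CPM. Replicate 3 was the high whole-cell library under each line label in both genes, and in WT-res cytoplasm the high library was replicate 1. An unnamed gene on the opposite strand shares 499 exonic bases with INHBE and took up to 111% of its count. SESN2 and DDIT4, which restrain mTORC1, and STC2, a secreted glycoprotein, had widest folds of 1.53, 1.87 and 1.74.

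Over 14654 genes with a mean of at least 1 CPM, the median fold between the highest and the lowest replicate was 1.23 in WT-res whole-cell RNA, 1.16 in ΔRS-res whole-cell RNA, 1.19 in WT-res cytoplasm and 1.19 in ΔRS-res cytoplasm. For the 35 genes it was 1.49, 1.48, 1.39 and 1.54, which is what they were chosen for. A range of at least 1 on the log2 scale was found for 9, 8, 5 and 8 of the 35, against 5.11%, 1.47%, 2.72% and 3.02% of the 14654 genes. The narrowest members were SLC7A1, SLC1A5 and MTHFD1L, whose widest folds over the 4 groups were 1.13, 1.17 and 1.2.

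The highest library was replicate 3 for 31 of the 35 genes in WT-res whole-cell RNA, for all 35 in ΔRS-res whole-cell RNA and for 33 in ΔRS-res cytoplasm, where 49%, 48.1% and 49% of all genes were highest in that library. In WT-res cytoplasm, replicate 1 was highest for 17 and replicate 3 for 18 genes, and replicate 2 was lowest for 34 of 35, against 43.9% of all genes. Without the library labelled WT-res replicate 3 of whole-cell RNA, the median fold between the remaining WT-res whole-cell replicates was 1.04 for the 35 genes and 1.06 for all genes, and none of the 35 (0) had a range of at least 1.

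**Figure D1:**
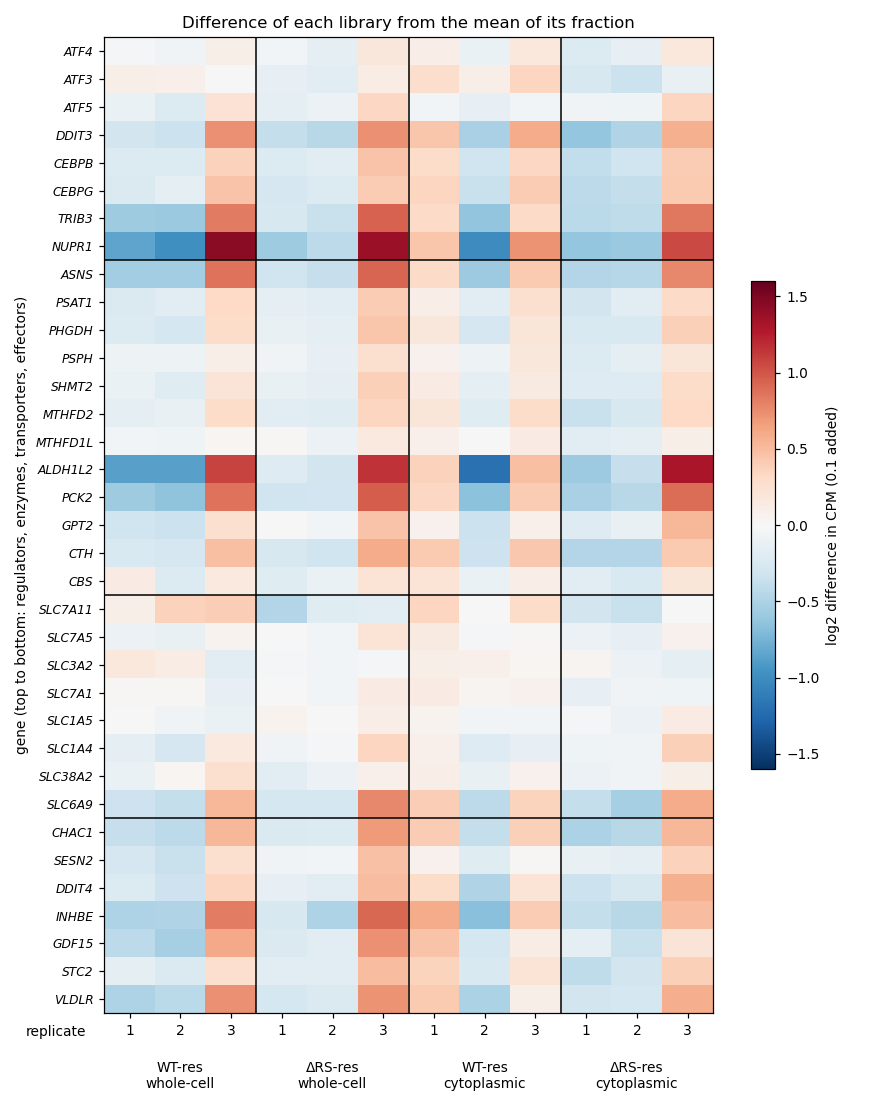
Difference of each library from the mean of the 6 libraries of its fraction, on a log2 scale of CPM with 0.1 added, for the 35 genes in rows and the 12 libraries in columns. Red columns are replicate 3 of both whole-cell groups, replicates 1 and 3 of WT-res cytoplasm and replicate 3 of ΔRS-res cytoplasm, and the transporter rows are pale.

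The same pattern was summarised by the median log2 difference of each library from a gene's mean over the 6 libraries of its fraction. For the 35 genes it was -0.21, -0.23 and 0.30 in WT-res and -0.17, -0.17 and 0.45 in ΔRS-res whole-cell RNA, and 0.28, -0.25 and 0.22 in WT-res and -0.29, -0.26 and 0.38 in ΔRS-res cytoplasm. The effectors had the largest differences, from -0.41 to 0.69, followed by regulators, from -0.41 to 0.43, and enzymes, from -0.27 to 0.42, while transporters stayed between -0.09 and 0.12. Over all genes no library differed by more than 0.03 in size.

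Lists of related genes that are not among the 35 had medians smaller in size. The other ATF4 targets, 11 of them measured here, had medians of the same sign as the 35 genes in every library, from -0.16 to 0.22. Single genes among them differed widely. In WT-res whole-cell replicates 1, 2 and 3, EIF4EBP1 gave 75.5, 75.2 and 132 CPM and GOT1 89.9, 88.2 and 174 CPM. SQSTM1 went the other way, at 94.3, 93.7 and 66.8 CPM. The 20 cytosolic aminoacyl-tRNA synthetases, which charge tRNAs and of which several are known ATF4 targets, had medians of the same sign as the 35 genes in every library, from -0.16 to 0.20. The 17 genes of the eIF2 kinases and the eIF2 machinery, which act upstream of ATF4, lay between -0.04 and 0.04. The 14 genes of the unfolded protein response of the endoplasmic reticulum, mostly chaperones driven by ATF6 and XBP1, had the opposite sign in every library, at -0.20 and -0.14 in whole-cell replicates 3 and 0.22 in WT-res cytoplasmic replicate 2. The nuclear RNAs NEAT1, MALAT1 and KCNQ1OT1, given as a measure of nuclear material, had a median of 0.34 in WT-res whole-cell replicate 3 and 0.50 in WT-res cytoplasmic replicate 1, and their part in the levels of the 35 genes was not tested.

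In whole-cell RNA the lines were compared over 3 against 3 libraries with edgeR, where a gene is called at a Benjamini-Hochberg adjusted p under 0.05 over all genes tested and a fold change is ΔRS-res over WT-res. No member was called, 0 of 35, as was 0% of 26793 genes. At an unadjusted p under 0.05 only SLC7A11 passed, 1 of 35, against 12.5% of all genes, and with DESeq2 at an adjusted p under 0.05 it was again SLC7A11 alone, against 3.97% of all genes. The median log2 fold change was 0.09 for the 35 genes and 0.00 for all genes, with 26 of the 35 above 0.

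The standard errors show how wide this comparison was. ASNS had a log2 fold change of 0.11 ± 0.483 (SE, n = 3 per line) with an adjusted p of 0.959 in edgeR, and TRIB3 one of 0.18 ± 0.477 with an adjusted p of 0.930. For DDIT3 it was -0.06 ± 0.398 (edgeR adjusted p = 0.978), for CHAC1 0.15 ± 0.345 (0.915), for PSAT1 0.05 ± 0.196 (0.960) and for ATF4 -0.01 ± 0.0962 (0.978). The error of ATF4 was thus the smallest of these 6 and that of ASNS the largest.

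SLC7A11 was the member with the largest difference in whole-cell RNA. Its log2 fold change was -0.58 ± 0.113 with an adjusted p of 0.213 in edgeR, so it was not called, although its groups did not overlap. It was the only one of the 35 genes without overlap, while 19% of all genes had none. Without the library labelled WT-res replicate 3 of whole-cell RNA its log2 fold change was -0.53 ± 0.117 (edgeR adjusted p = 0.0756), and it was called when WT-res whole-cell replicate 1 was left out.

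Same-numbered whole-cell libraries of the lines deviated from their line's mean together, and the replicate number was also used as a block. In both lines as labelled, replicates 1 and 2 were alike and replicate 3 stood apart. Chi-square per gene was 29.1 between WT-res replicates 1 and 2, against 150 and 127 with replicate 3. In ΔRS-res it was 15.8 against 66.3 and 64.6. The pairing thus rests largely on replicate 3, whose WT-res library went against its label, and the blocked calls are an alternative only. With this replicate block 3 of the 35 genes were called by edgeR, against 7.97% of all genes. SLC7A11 was lower in ΔRS-res, with a log2 fold change of -0.58 ± 0.0428 and an adjusted p of 0.0188, and GPT2, alanine aminotransferase 2, and SESN2 were higher, at 0.26 ± 0.0463 (edgeR adjusted p = 0.0317) and 0.23 ± 0.0447 (0.0360). ASNS stood at 0.14 ± 0.0506 (edgeR adjusted p = 0.143) in this fit. Without the library labelled WT-res replicate 3 of whole-cell RNA, a fit with the replicate block has 1 residual degree of freedom and called 9 of 35, against 16.6% of all genes. ALDH1L2, ASNS, GPT2, PCK2, SESN2 and TRIB3 were higher in ΔRS-res and ATF3, SLC3A2 and SLC7A11 lower. SLC7A11 stood at -0.58 ± 0.0373 (edgeR adjusted p = 0.00125), GPT2 at 0.29 ± 0.0380 (0.00849), SESN2 at 0.25 ± 0.0407 (0.0157) and ASNS at 0.19 ± 0.0381 (0.0273), so that the blocked call of ASNS depended on leaving this library out.

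Without the library labelled WT-res replicate 3 of whole-cell RNA, edgeR again called 0 of 35 in whole-cell RNA, against 2.06% of all genes, and the median log2 fold change of the 35 genes went from 0.09 to 0.26. DESeq2 then called 2 of 35, SLC7A11 lower and GPT2 higher, against 9.1% of all genes. Groups without overlap then numbered 18 of 35, 16 higher and 2 lower in ΔRS-res, against 42.5% of all genes. ASNS then stood at 0.74 ± 0.378 and TRIB3 at 0.80 ± 0.377, with edgeR adjusted p values of 0.323 and 0.288. Their WT-res values were in that case 193 and 192 CPM and 23.1 and 22.6 CPM, and the ΔRS-res values still held replicate 3.

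In the cytoplasm the 4 libraries that the study kept were WT-res replicates 1 and 3 and ΔRS-res replicates 1 and 2. For most members these are the high libraries of WT-res and the low libraries of ΔRS-res, and the libraries left out are the low one of WT-res and the high one of ΔRS-res. For ASNS, 424 and 460 CPM were set against 248 and 250 CPM, while 230 and 584 CPM were left out. The choice of members rests on these same differences between replicates. The counts, fold changes and adjusted p values of members that follow for these 4 libraries are therefore a description. They cannot tell a difference between the lines from one between replicates.

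With those 4 libraries edgeR called 26 of 35 genes, all lower in ΔRS-res, against 22.1% of 25814 genes called and 11.4% called lower. All 12 enzymes, 7 of 8 regulators, 5 of 7 effectors and 2 of 8 transporters were among them, and the median log2 fold change of the 35 genes was -0.54, against 0.01 for all genes. By the study's own threshold, an unadjusted p under 0.05 and a change of more than 0.5 in size on the log2 scale, 19 of the 35 were lower, against 7.86% of all genes. The study applied these cut-offs to single transcripts tested with DESeq2, whereas here they were applied to gene sums tested with edgeR.

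NUPR1 had the largest fold change in these 4 libraries, -1.23 ± 0.135 on the log2 scale (edgeR adjusted p = 0.00271), followed by DDIT3 at -1.06 ± 0.0768 (0.00100) and INHBE at -0.96 ± 0.149 (0.00784). ALDH1L2 and CTH both fell by 0.88, with standard errors of 0.0923 and 0.0491 and edgeR adjusted p values of 0.00248 and 0.000636. CHAC1 stood at -0.87 ± 0.0776 (edgeR adjusted p = 0.00164), ASNS at -0.81 ± 0.0535 (0.000801), TRIB3 at -0.70 ± 0.0455 (0.000781), PSAT1 at -0.40 ± 0.0679 (0.0103) and ATF4 at -0.29 ± 0.0535 (0.0142). Without ΔRS-res replicate 1 ATF4 (edgeR adjusted p = 0.147) and PSAT1 (0.0741) were not called, and without ΔRS-res replicate 2 ATF4 (0.0711) and INHBE (0.0587) were not. Each of these fits sets a single ΔRS-res library against the WT-res pair, which alone supplies the spread. The 9 genes not called were ATF5, SESN2, GDF15 and the transporters SLC7A5, SLC3A2, SLC7A1, SLC1A5, SLC1A4 and SLC38A2.

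With all 6 cytoplasmic libraries edgeR called 0 of 35 genes, against 1.53% of 25949 genes, and the median log2 fold change of the 35 was -0.10, against 0.00 for all genes. As in whole-cell RNA, the choice of members widened the errors, so this count is a description. At an unadjusted p under 0.05, 3 of the 35 passed (ATF3, SLC7A11 and SLC7A1), against 10.8% of all genes, and DESeq2 at an adjusted p under 0.05 called ATF3 alone, against 3.6% of all genes. ASNS had a log2 fold change of -0.04 ± 0.371 (edgeR adjusted p = 0.991), TRIB3 0.09 ± 0.377 (0.977), DDIT3 -0.32 ± 0.369 (0.858), CHAC1 -0.23 ± 0.321 (0.885), PSAT1 -0.10 ± 0.170 (0.916) and ATF4 -0.10 ± 0.118 (0.862). Adding the remaining library of each line therefore widened the standard error of ASNS from 0.0535 to 0.371 and moved its estimate from -0.81 to -0.04.

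**Figure D2:**
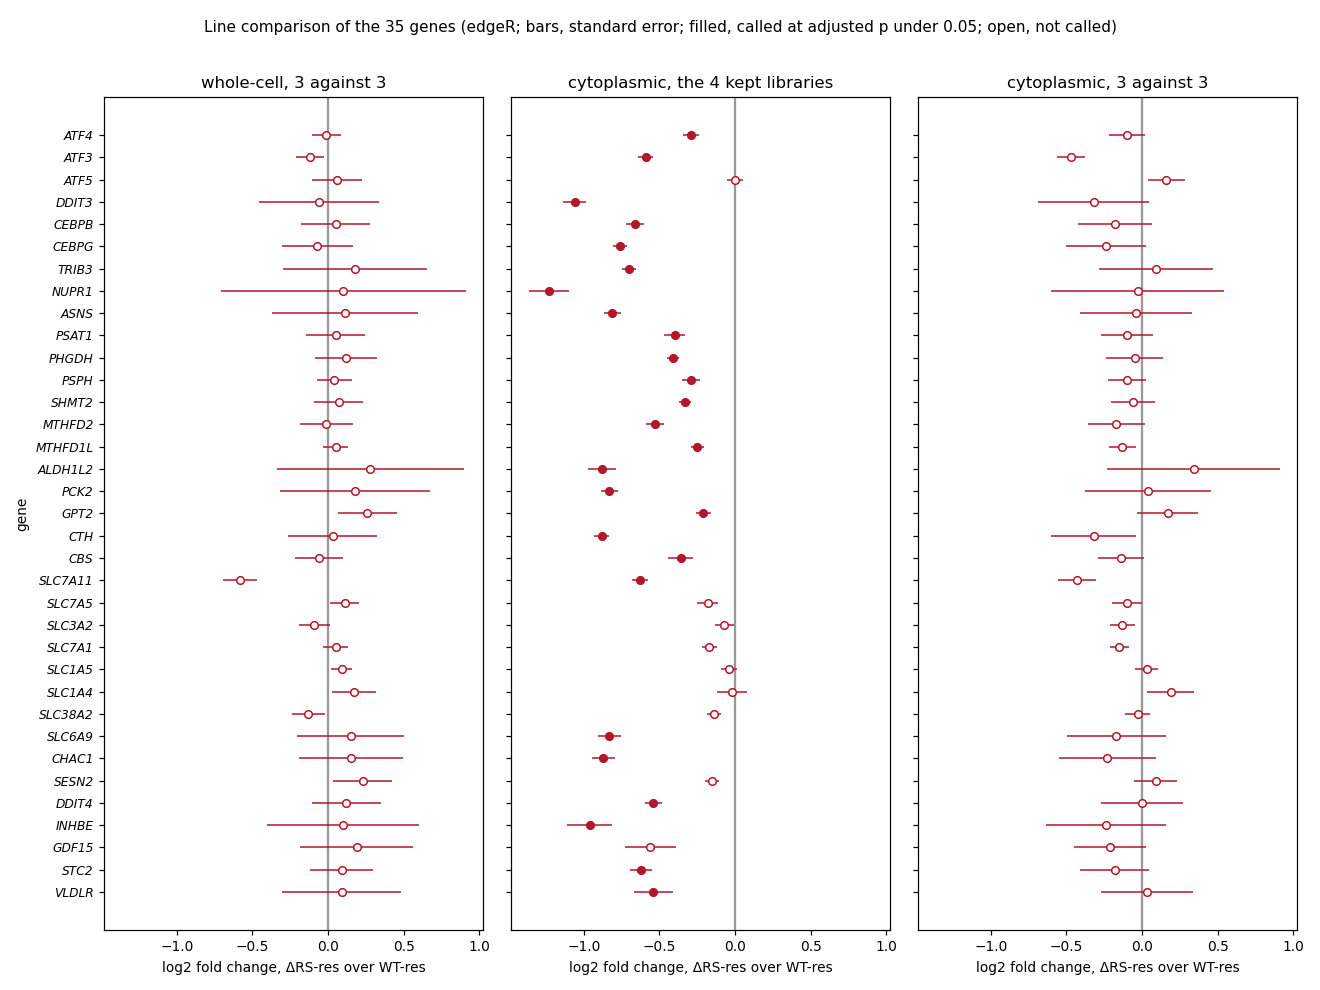
Log2 fold change of ΔRS-res over WT-res with its standard error for the 35 genes in whole-cell RNA, in the 4 cytoplasmic libraries kept by the study and in all 6 cytoplasmic libraries; filled points were called by edgeR at an adjusted p under 0.05. In the middle panel 26 points are filled and all lie below 0, and in the outer panels none is filled.

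ATF3, a stress-induced repressor and activator (ENSG00000162772, chr1:212565334-212620777), varied less between replicates than most members, and it is described here after its values were seen. Replicate 3 was its highest library in 3 of the 4 groups. Its cytoplasmic levels were 90.7, 80.0 and 95 CPM in WT-res and 62.6, 59.2 and 68.8 CPM in ΔRS-res, without overlap. Its whole-cell levels were 48.2, 47.9 and 45.5 CPM and 41.5, 40.4 and 49.3 CPM, with overlap. The cytoplasmic log2 fold change over all 6 libraries was -0.47 ± 0.0905 with an adjusted p of 0.0522 in edgeR, just outside the threshold, and with the 4 libraries it was -0.59 ± 0.0497 (0.00146). Groups without overlap over the 6 cytoplasmic libraries were found for ATF3, SLC7A11 and SLC7A1 among the 35, all lower in ΔRS-res, and for 17.1% of all genes.

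Whether the difference between the lines itself differed between the fractions was tested as an interaction over all 12 libraries. No member was called by edgeR, 0 of 35, against 0.00375% of 26686 genes, or 1 gene. The median log2 interaction was -0.16 for the 35 genes and -0.02 for all genes. Leaving out 1 library moved the median of the 35 over -0.43 to 0.04. Without the library labelled WT-res replicate 3 of whole-cell RNA it was -0.37, against -0.03 for all genes. At an unadjusted p under 0.05, 2 of the 35 passed (ATF3 and SLC7A1), against 5.52% of all genes, and DESeq2 called 0 of the 35. For ATF3 the line difference was lower in the cytoplasm by -0.37 ± 0.132 on the log2 scale, with an edgeR adjusted p of 0.724.

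Among gene lists around the pathway, the 4 cytoplasmic libraries gave calls in both directions, where 11.4% of all genes were called lower and 10.7% higher. Of 13 other ATF4 targets tested, 5 were lower and 2 higher in ΔRS-res. Their median was -0.38 on the log2 scale, led by NIBAN1 at -1.11 ± 0.0671 (edgeR adjusted p = 0.000747), JDP2 at -1.02 ± 0.0954 (0.00179) and EIF4EBP1, the translation repressor 4E-BP1, at -0.67 ± 0.0517 (0.00118). Of the 20 cytosolic tRNA synthetases 11 were lower and 3 higher, with a median of -0.24. Of the 14 genes of the unfolded protein response 3 were lower and 7 higher, with a median of 0.34, led by CRELD2 at 0.78 ± 0.113 (edgeR adjusted p = 0.00634). Among the 17 eIF2 genes 3 were lower, among them PPP1R15A (GADD34, the phosphatase subunit that ends the response) at -0.59 ± 0.0660 (edgeR adjusted p = 0.00282), and 2 were higher. With all 6 libraries edgeR called 1 of the 20 tRNA synthetases and none of the other ATF4 targets, the unfolded protein response genes or the eIF2 genes, of which 1, 2 and 1 passed an unadjusted p under 0.05, against 1.53% of all genes called and 10.8% passing unadjusted.

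The fraction in which a transcript was found played no part in the choice of members. Cytoplasmic RNA was compared with whole-cell RNA within each line, in 1 fit of all 12 libraries, and values are relative to all RNA of that fraction. The nuclear RNA NEAT1 was lower in the cytoplasm by -1.52 ± 0.209 on the log2 scale in WT-res and -1.5 ± 0.209 in ΔRS-res, with edgeR adjusted p values of 0.000133 and 0.000119. Of the 3 nuclear RNAs 2 were called lower in each line, with fold changes from -1.89 to -0.7 in WT-res and -1.55 to -0.41 in ΔRS-res. MALAT1 gave 1620, 1640 and 3080 CPM in WT-res whole-cell RNA and 1780, 993 and 1110 CPM in the cytoplasm. In WT-res replicate 1 it was thus not lower in the cytoplasm.

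In WT-res edgeR called 15 of 35 genes, against 41.8% of 26686 genes. Of these 11 were lower in the cytoplasm, against 24.8% of all genes, and 4 were higher, against 16.9%. In ΔRS-res it called 13 of 35, against 40.9% of all genes, 11 lower against 24.3% and 2 higher against 16.6%. The direction followed where the encoded protein is made. Of the 12 members whose proteins are made at the endoplasmic reticulum (the transporters, GDF15, INHBE, STC2 and VLDLR) 11 were lower in each line, all but INHBE, with medians of -1.6 in WT-res and -1.70 in ΔRS-res. None of the 6 mitochondrial and 17 cytosolic or nuclear members was called lower, and their medians were 0.31 and 0.40 in WT-res and 0.18 and 0.24 in ΔRS-res.

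SLC1A4, a carrier of alanine and serine, and VLDLR had the largest fold changes. SLC1A4 gave 22.7, 21.1 and 28.3 CPM in WT-res whole-cell RNA and 5.84, 4.79 and 5.06 CPM in the cytoplasm, and 24.5, 25.1 and 32.2 CPM and 5.28, 5.33 and 7.21 CPM in ΔRS-res. Whole-cell and cytoplasmic libraries did not overlap, and the log2 fold change was -2.20 ± 0.168 in WT-res and -2.20 ± 0.167 in ΔRS-res (edgeR adjusted p = 8.24e-07 and 7.64e-07).

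VLDLR fell by 2.10 in WT-res and by 2.17 in ΔRS-res, with a standard error of 0.415 in each (edgeR adjusted p = 0.00175 and 0.00121). The glutamine carrier SLC1A5 had log2 fold changes of -1.88 ± 0.0728 and -1.96 ± 0.0730 (edgeR adjusted p = 3.85e-09 and 2.42e-09), and GDF15 of -1.69 ± 0.359 and -2.11 ± 0.363 (0.00273 and 0.000577). The cationic amino acid carrier SLC7A1 stood at -1.61 ± 0.0699 in WT-res and -1.84 ± 0.0703 in ΔRS-res (edgeR adjusted p = 8.98e-09 and 2.90e-09), SLC38A2 at -1.68 ± 0.108 in WT-res (2.02e-07) and SLC7A5 at -1.81 ± 0.0973 in ΔRS-res (3.68e-08).

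SLC7A11 had the smallest fold changes of the 11, -0.91 ± 0.130 in WT-res and -0.77 ± 0.130 in ΔRS-res, with edgeR adjusted p values of 0.000182 and 0.000502. For comparison, 25 other mRNAs translated at the endoplasmic reticulum, such as those of membrane receptors and lysosomal proteins, were all called lower in both lines, with medians of -2.35 and -2.38, and of 8 abundant cytoplasmic mRNAs 7 were called higher in each line, with medians of 0.39 and 0.35.

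Among members made in the cytosol, ATF3 and ATF4 were called higher in the cytoplasm of both lines. ATF3 differed by 0.91 ± 0.0944 in WT-res and 0.54 ± 0.0939 in ΔRS-res (edgeR adjusted p = 1.28e-05 and 0.000637), and ATF4 by 0.53 ± 0.117 and 0.43 ± 0.116 (0.00343 and 0.0114). MTHFD1L and PSPH, phosphoserine phosphatase, were called higher in WT-res only, at 0.38 ± 0.0871 (edgeR adjusted p = 0.00414) and 0.37 ± 0.130 (0.0367), and the interaction was not called for either.

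**Figure D3:**
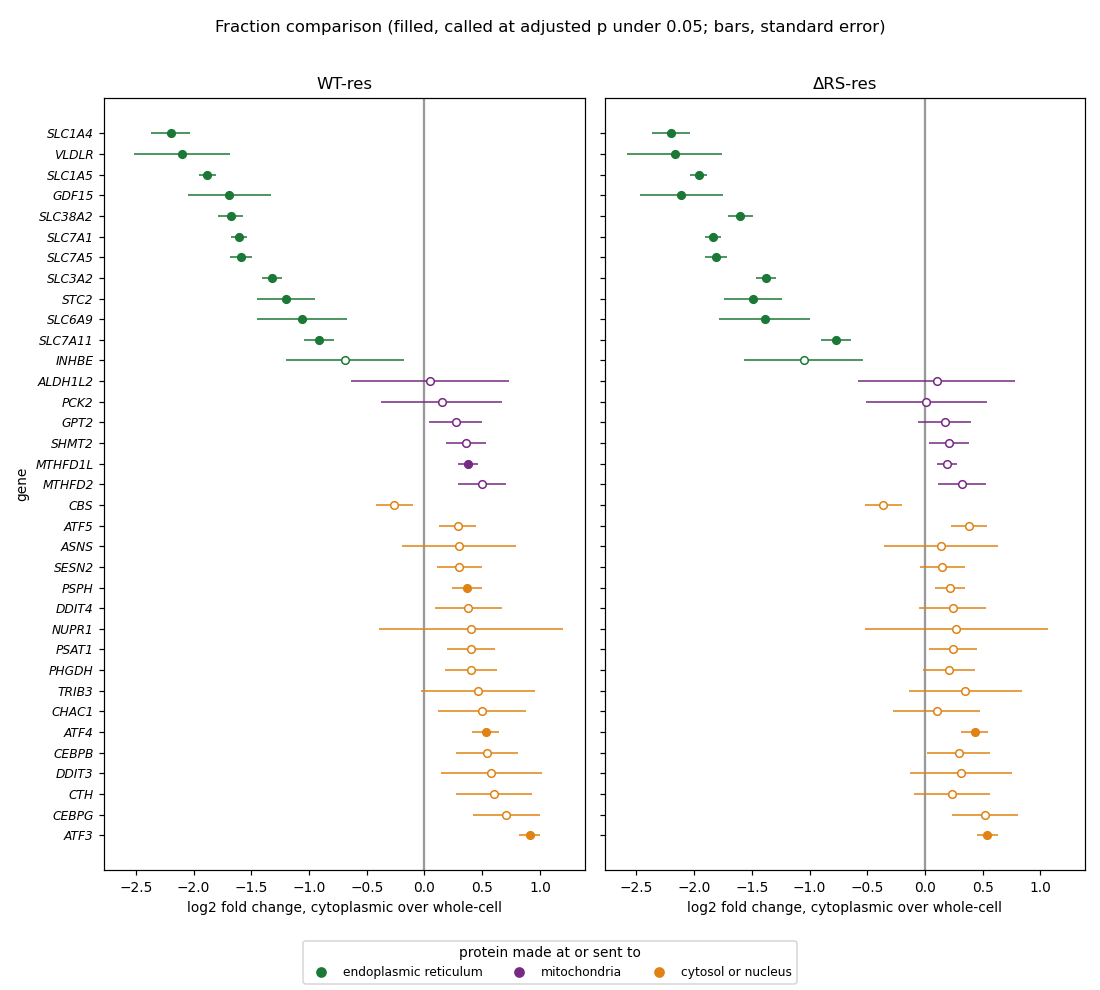
Log2 fold change of cytoplasmic over whole-cell RNA with its standard error for the 35 genes in WT-res and ΔRS-res, coloured by where the protein is made or sent; filled points were called by edgeR at an adjusted p under 0.05. The members made at the endoplasmic reticulum lie between -2.20 and -0.69, and the others lie around or above 0.

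The study's sample sheet lists 1 cell pellet identifier for both fractions of each line and number. With line and number as a replicate block, edgeR called 29 of 35 genes in WT-res (12 lower, 17 higher), against 49.1% of all genes, and 22 in ΔRS-res (13 lower, 9 higher), against 47.1%. The members gained included CEBPG, at 0.70 ± 0.130 in WT-res and 0.50 ± 0.129 in ΔRS-res (edgeR adjusted p = 0.00199 and 0.0110), and CBS, lower by -0.26 ± 0.0881 and -0.36 ± 0.0882 (0.0380 and 0.00902). CBS shares reads with CBSL, so the direction of CBS alone is uncertain. The sum of the pair was 66.9, 62.7 and 84.5 CPM in WT-res whole-cell RNA and 110, 74.5 and 106 CPM in its cytoplasm. In ΔRS-res the sum was 67.7, 66.4 and 97 CPM against 72.1, 70.5 and 110 CPM. Within each number of both lines the sum was higher in the cytoplasm, and it was not tested. Without the library labelled WT-res replicate 3 of whole-cell RNA edgeR called 18 of 35 in WT-res, 10 lower and 8 higher, against 40.9% of all genes, and SLC6A9, which had been near the threshold at -1.06 ± 0.393 (edgeR adjusted p = 0.0475), was not called, at -0.70 ± 0.396 (0.182). GDF15 moved from -1.69 to -1.23 and VLDLR from -2.10 to -1.58 without it. With the replicate block and without this library edgeR called 32 of 35 in WT-res, 11 lower and 21 higher, against 41.8% of all genes, and CBS was not called, at -0.20 ± 0.1 (edgeR adjusted p = 0.141). That fit has 3 residual degrees of freedom, and its WT-res contrast rests on the pairs of replicates 1 and 2. The fractions of the replicate 1 pair, described next, did not deviate together, with a correlation of -0.134.

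The ratio of cytoplasmic to whole-cell CPM within a number was high in WT-res replicate 1. The deviations of its whole-cell and cytoplasmic libraries from their group means correlated at -0.134 over 10102 genes, against 0.513 to 0.803 for the other numbers and lines, and whether this pair came from the same pellet was not tested. The ratios and the WT-res replicate block take the pair as labelled. The median log2 ratio over the 35 genes was 0.57, 0.26 and -0.07 in WT-res replicates 1, 2 and 3 and 0.08, 0.15 and 0.18 in ΔRS-res. For ASNS it was 1.14, 0.26 and -0.17 in WT-res against 0.13, 0.20 and 0.12 in ΔRS-res, and for TRIB3 1.33, 0.42 and -0.07 against 0.28, 0.41 and 0.35.

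The ratio was highest in replicate 1 for 29 of the 35 genes in WT-res, whereas in ΔRS-res 12, 12 and 11 genes were highest in replicates 1, 2 and 3. This count was not made over all genes, and the members were chosen for differences between replicates. It therefore does not set them apart from other genes. INHBE was above 0 in WT-res replicate 1 alone, at 0.32, against -0.96 and -1.18 in WT-res replicates 2 and 3 and -0.88, -0.71 and -1.18 in ΔRS-res. The median of the members made at the endoplasmic reticulum moved less with the number, at -1.28, -1.56 and -1.62 in WT-res and -1.64, -1.67 and -1.73 in ΔRS-res. Most of these members are transporters, whose medians were -1.44, -1.64 and -1.62 in WT-res. Others moved more, such as VLDLR at -1.15, -2.14 and -2.71 and GDF15 at -0.9, -1.54 and -2.27 in WT-res. The ratios of WT-res replicate 3 involve the library that went against its label.

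The deposited counts are per transcript, and 30 of the 35 genes had their canonical Ensembl transcript as the leading one. For 15 genes the leading transcript held at least 90% of the gene's counts in every library, among them ATF4 (96.6% to 99.1%), TRIB3 (98.1% to 99.6%) and SLC7A11 (99.7% to 100%), so the sums over transcripts for these genes are those of 1 mRNA. In ASNS the leading transcript held 46.4% to 55.2%, and in SLC3A2 16.4% to 35%.

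Transcripts annotated with a retained intron were counted in 18 of the 35 genes, and in 10 of these their share was lower in every cytoplasmic than in every whole-cell library. The same count was not made over all genes with such transcripts, so it does not set these members apart from other genes. DDIT4 showed it most clearly, at 13.5%, 17.5% and 11% in WT-res and 11.7%, 11.7% and 10.3% in ΔRS-res whole-cell RNA, against 1.39%, 1.80% and 0.726% and 1.89%, 1.64% and 0.859% in the cytoplasm. In ASNS the share was 1.72% to 2.39% in whole-cell and 0.345% to 0.571% in cytoplasmic RNA. SLC3A2 went the other way in every library, at 24.7% to 29.0% in whole-cell and 29.5% to 38.1% in cytoplasmic RNA. The lines overlapped in both fractions for DDIT4. For ASNS they overlapped in the cytoplasm, but in whole-cell RNA the share was 2.39%, 2.33% and 2.20% in WT-res against 1.79%, 1.99% and 1.72% in ΔRS-res, without overlap. These shares rest on RSEM's division of reads among overlapping transcripts, and they were not tested. The count of 10 genes was the same without the library labelled WT-res replicate 3 of whole-cell RNA.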

How the data were processed

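RNA-seq libraries of whole-cell and cytoplasmic RNA from WT-res and ΔRS-res cells, 3 per line and fraction, were analysed from the expected counts per transcript that the authors deposited, unscaled. Per the paper and the labels, the authors depleted ribosomal RNA, trimmed reads with Trim Galore, aligned them to GRCh38 with STAR and quantified Ensembl 107 transcripts with RSEM in the nf-core/rnaseq pipeline. Tool versions inside that pipeline are not given in the sources used here. Columns were joined to samples by their labels, and 251121 transcripts were summed to 61860 genes, of which 99.83% were found in GENCODE 44 for positions, names and types.

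Gene sums were rounded to whole numbers and tested in edgeR 4.0.16 (R 4.3.3) by its quasi-likelihood test with TMM scaling, a mean count above 2 in the libraries of the fit, and Benjamini-Hochberg adjustment over all genes tested. The lines were compared in whole-cell RNA, in the 4 cytoplasmic libraries kept by the study and in all 6, and the fractions and their interaction with line in 1 fit of the 12 libraries. Standard errors are the log2 fold change divided by the square root of F. The tests were checked on simulated counts. Alternatives tried were the Wald test of DESeq2 1.42.0, its size factors within edgeR, no filter, filterByExpr, the study's threshold, a replicate block, leaving out each library, and a joint fit.

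The members, the gene lists (other ATF4 targets, cytosolic tRNA synthetases, eIF2 genes, unfolded protein response, other mRNAs of the endoplasmic reticulum, nuclear RNAs, cytoplasmic mRNAs, HEK293 and other cell markers) and the tests were chosen with earlier results of these data known. Levels are given in full for 10 genes prominent in the pathway and for the 5 further members with the widest range among replicates, and fold changes for 6 fixed members in each line comparison and for the 6 largest among those called in each comparison. Other genes named were chosen after their values were seen.

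Replicate numbers were checked by correlating deviations from group means over 10102 genes. Pearson correlations between the lines were 0.682, 0.768 and 0.707 for numbers 1, 2 and 3 in whole-cell RNA and -0.495, 0.580 and 0.413 in the cytoplasm. The whole-cell values are not independent, since replicate 3 stood apart from replicates 1 and 2 in both lines as labelled. Between the fractions, which share a pellet identifier in the study's sample sheet, they were -0.134, 0.614 and 0.520 in WT-res and 0.621, 0.513 and 0.803 in ΔRS-res. No pair of replicates agreed within counting noise (chi-square per gene of at least 15.8). Promoter sequences came from RefSeq.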

Additional observations from a re-analysis of the deposited data

How the results depend on the processing

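In whole-cell RNA, where edgeR called none of the 35 genes, 1 was called by the study's threshold, by the DESeq2 Wald test and in 1 fit of all 12 libraries, in each case SLC7A11, and 3 with the replicate block. Leaving out 1 library gave 0 to 1. In fits chosen after seeing the data, without the library labelled WT-res replicate 3 of whole-cell RNA, the DESeq2 Wald test called 2 and the replicate block 9, and the WT-res fraction comparison with the block called 32. The last rests on the WT-res pairs of replicates 1 and 2, and the fractions of the replicate 1 pair did not deviate together. With all 6 cytoplasmic libraries, again with none called, ATF3 was the 1 gene called by the DESeq2 Wald test, without a filter, with filterByExpr and with the replicate block, and leaving out 1 library gave 0 to 1 (called without WT-res replicate 2 and without ΔRS-res replicate 3). Over these alternatives its adjusted p ran from 0.00173 to 0.244, and it was 0.016 with the replicate block, whose numbers do not pair the cytoplasmic libraries. With the 4 cytoplasmic libraries kept by the study the count ran from 18, without either ΔRS-res library, to 29, without WT-res replicate 3. No paired analysis was possible there because the arms share only 1 replicate number. In the fraction comparisons the replicate block raised the count from 15 to 29 in WT-res and from 13 to 22 in ΔRS-res, and leaving out 1 library gave 13 to 18 and 12 to 13. The interaction gave 0 members in every alternative run.

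Directions that turned were those of fold changes that had not been called. Leaving out 1 whole-cell library moved the log2 fold change of ASNS over -0.44 to 0.74, of TRIB3 over -0.36 to 0.80, of CHAC1 over -0.22 to 0.53, of PSAT1 over -0.17 to 0.23, of ATF4 over -0.11 to 0.06 and of DDIT3 over -0.55 to 0.38. Leaving out 1 of the 6 cytoplasmic libraries moved ASNS over -0.56 to 0.17, TRIB3 over -0.46 to 0.30 and PSAT1 over -0.30 to 0.01. In the 4 kept libraries ATF4 was no longer called without either ΔRS-res library (adjusted p of 0.147 and 0.0711), PSAT1 without ΔRS-res replicate 1 (0.0741) and INHBE without ΔRS-res replicate 2 (0.0587). These fits, and those behind the range of 18 to 29, have an arm of 1 library, whose spread is taken from the pair in the other arm. The comparisons rest on 3 libraries per group and 2 per arm among those kept. No alternative depth was tried. Over all genes, the whole-cell count was 0 in edgeR, 18 without a filter, 512 in 1 fit of all 12 libraries, 1064 with the DESeq2 Wald test, 2136 with the replicate block and 0 to 602 when 1 library was left out. With all 6 cytoplasmic libraries it was 396, against 933 with the Wald test, 573 without a filter, 520 with the replicate block, 13 in 1 fit of all 12 libraries and 117 to 366 when 1 library was left out. With the 4 kept libraries it was 5716, against 2208 and 1978 without ΔRS-res replicate 1 or 2. The cause of these differences was not tested.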
